A study of Mus musculus with 6 samples.

Results

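The 10 genes described here encode cytokines of the interleukin-6, interleukin-12 and interleukin-10 families and related factors, namely Il6, Il12a, Il12b, Il23a, Il27, Ebi3, Il10, Il15, Osm and Lif. They form a family list matched by gene symbol, with no threshold on their values, and all 10 were found once each among the 21936 genes of the tables. All 10 are protein-coding genes, and the mm10 coordinates given below, from the tables, equal those of GENCODE M21. RNA was sequenced from sorted macrophages of mice kept on a high-fat diet for 4 months, in 3 libraries labelled WT and 3 labelled CKO. By the labels both groups carried the genotype ALKBH5flox/flox, APOE-/-, that is loxP-flanked Alkbh5 on an Apoe-deficient background. By the same labels the CKO mice carried Lyz2-Cre in addition. Lyz2-Cre acts in myeloid cells at large, not in macrophages alone. The tissue of origin, the sort markers, the sex and the age are not given in the sources used here, and nothing in them says that each library is a different animal. P-values therefore measure only the spread between libraries, and that spread may be technical.

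Interleukin-6, oncostatin M (Osm) and leukaemia inhibitory factor (Lif) signal through receptor complexes that share the chain gp130, encoded by Il6st, and activate Janus kinases and STAT3. The interleukin-12 family is made of paired subunits: Il12a with Il12b forms interleukin-12, Il23a with Il12b forms interleukin-23, and Il27 with Ebi3 forms interleukin-27. Interleukin-10 restrains macrophage activation through its own receptor, and interleukin-15 is held on the cell surface by Il15ra and presented to natural killer and T cells. In macrophages most of these genes are kept low at rest and are switched on by microbial products and interferons.

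All values are FPKM, reads scaled by gene length and library size, so levels of different genes can be compared. Values with ± are means and SD over the 3 libraries of a group. The libraries held 15422154 to 18418903 reads assigned to genes. Alkbh5, the gene to be deleted, was higher in the CKO-labelled libraries, at 8.75 ± 0.350 against 3.87 ± 0.0879 FPKM (SD, n = 3). Apoe, for which all mice were labelled deficient, stood at 1635 ± 29.3 FPKM under the label WT and at 95.0 ± 4.69 under CKO. Lyz2, the gene whose promoter drives Cre, read 15116 ± 992 and 6556 ± 211 FPKM. Alkbh5 thus went against the label, and Apoe reads were present in both groups and differed 17.2-fold between them although labelled alike. Each direction below therefore refers to the libraries as labelled and not to a checked genotype. The 12 macrophage markers were all above 1 FPKM on average in a group, but 5 rose and 7 fell. In the test given below 30.5% of all 9953 tested genes rose and 50.5% fell. Summed over the 11 neutrophil markers the level was 655 to 941 FPKM in the WT-labelled libraries and 102 to 115 in the CKO-labelled ones. S100a9 (425 against 37.3) and S100a8 (153 against 33.4) made up most of the WT-labelled sum, as mean FPKM. Ngp went from 108 to 0.305, but Csf3r only from 41.6 to 32.4. Ly6g had 4 reads over the WT-labelled libraries and 0 over the CKO-labelled ones. With no filter 10 of the 11 fell and 0 rose, beside 38.0% and 23.3% of all 15665 genes. Over 5 monocyte markers the summed level was 27.0 to 33.0 and 122 to 143 FPKM. There Ly6c2 and Plac8 rose but Ccr2 fell from 6.35 ± 0.311 to 0.636 ± 0.0788. Over 9 dendritic cell markers it was 13.3 to 13.9 and 23.2 to 26.7 FPKM, where Ccr7 went from 0.742 ± 0.0497 to 21.1 ± 1.81 and Itgax from 10.2 ± 0.446 to 0.999 ± 0.145. With no filter 4 of the 9 dendritic cell markers rose and 4 fell, beside 23.3% and 38.0% of all 15665 genes. Over 11 T and NK cell markers it was 5.19 to 5.35 and 1.11 to 1.28 FPKM, with Cd3e, a defining T cell gene, at or under 0.0546 FPKM in every library. Cd4, the only 1 of these 11 at 1 FPKM or more on average in a group, made up most of the WT-labelled sum. It read 3.94 ± 0.511 against 0.483 ± 0.0431 FPKM. Over 9 fibroblast and mesothelial markers it was 0.760 to 1.09 and 2.19 to 2.43 FPKM, with Msln and Wt1 at 0 in every library. There Pdgfrb (0.1895 against 1.33) and Dcn (0.0607 against 0.574) were higher, and Col1a1 (0.390 against 0.156) and Col1a2 (0.216 against 0.0564) lower, as mean FPKM. The part of these shifts in the cytokine values was not tested.

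The cytokine transcripts were higher in every library labelled CKO than in any labelled WT, for each of the 10 genes. This ranged from a 2.11-fold difference for Ebi3 to 363-fold for Il6, as ratios of reads per library total. Of the 10 genes 8 passed the filter of at least 1 FPKM in at least 3 libraries, and these 8 rose at a limma adjusted p under 0.05. In that test 81.1% of the 9953 genes were called, 30.5% higher and 50.5% lower, and without regard to the test 31.2% lay wholly above and 51.3% wholly below the WT-labelled libraries. After median-of-ratios scaling 3952 genes were called higher and 3962 lower, against 3038 and 5031 without it. Il6, Il12a and Il12b passed the filter through the CKO-labelled libraries alone and so had to differ, and the count of 8 therefore supports nothing by itself. Il27 and Il10 reached 1 FPKM in 2 of the 3 WT-labelled libraries, so they too needed a CKO-labelled library to pass. Ebi3, Il15 and Osm reached it in all 6 libraries. With no filter 10 of 10 rose, among 15665 tested genes of which 61.3% were called, 23.3% higher and 38.0% lower, with 25.1% wholly above and 40.3% wholly below. In bulk RNA, more cells that make a cytokine and more transcript per cell cannot be told apart.

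**Figure D1:**
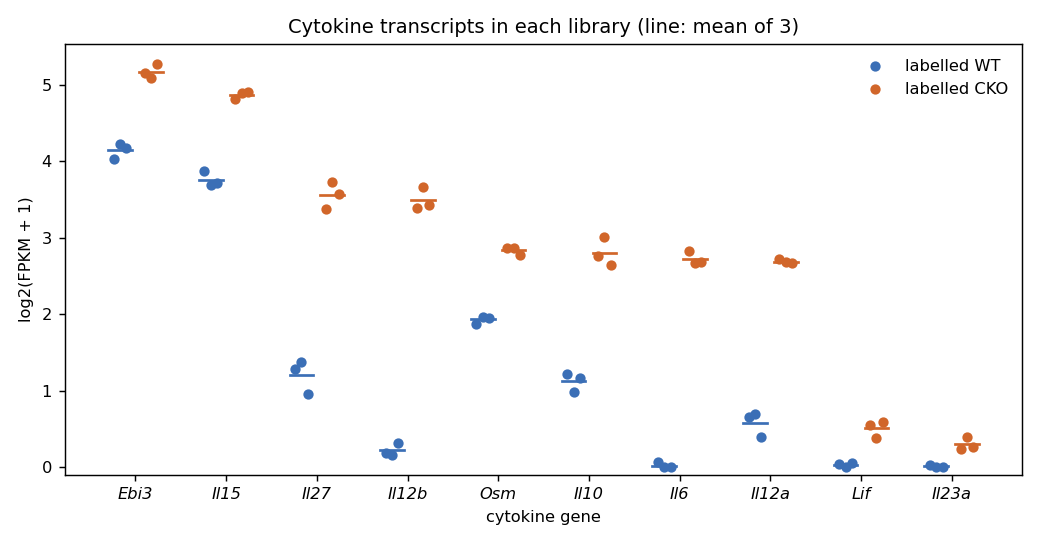
Level of each of the 10 cytokine genes as log2(FPKM + 1) in the 3 libraries labelled WT (blue) and the 3 labelled CKO (orange), with a line at the group mean. For every gene the orange points lie above the blue ones. Lif and Il23a stay under 1 FPKM in all libraries, and Ebi3 and Il15 have the highest levels in both groups.

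The order of levels changed between the groups. In the WT-labelled libraries the order by mean FPKM was Ebi3, Il15, Osm, Il27, Il10, Il12a, Il12b, Lif, Il6 and Il23a. Neighbours overlapped in their libraries for Il27 and Il10, for Lif and Il6 and for Il6 and Il23a. In the CKO-labelled libraries the order was Ebi3, Il15, Il27, Il12b, Osm, Il10, Il6, Il12a, Lif and Il23a. There Il27 overlapped Il12b, neighbours overlapped along the run of Osm, Il10, Il6 and Il12a, and Lif overlapped Il23a. Il12b thus moved from the seventh place to the fourth and Il6 from the ninth to the seventh.

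Promoter windows of 250 bases before to 50 after the start site were at hand for 5 of the 10 genes, from RefSeq (GRCm38.p6). Those of Il6, Il12b and Ebi3 are shown because Il6 and Il12b had the largest fold changes of the 8 tested genes and Ebi3 the highest level. Capitals mark matches, on either strand, to NF-kB, AP-1 (TGANTCA), C/EBP (TTGCNNAA), PU.1 (GAGGAA) and the interferon-stimulated response element (GAAA, any 2 bases, GAAA). They run 5′ to 3′ on the plus strand, from chr5:30012864-30013163 for Il6, chr11:44399813-44400112 for Il12b and chr17:55952373-55952672 for Ebi3.
Il6: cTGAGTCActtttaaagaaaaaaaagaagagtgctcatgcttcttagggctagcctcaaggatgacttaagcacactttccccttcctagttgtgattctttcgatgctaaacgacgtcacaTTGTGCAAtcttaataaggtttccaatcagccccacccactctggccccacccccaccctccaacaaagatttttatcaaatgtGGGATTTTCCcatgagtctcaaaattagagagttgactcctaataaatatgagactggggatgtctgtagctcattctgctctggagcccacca
Il12b: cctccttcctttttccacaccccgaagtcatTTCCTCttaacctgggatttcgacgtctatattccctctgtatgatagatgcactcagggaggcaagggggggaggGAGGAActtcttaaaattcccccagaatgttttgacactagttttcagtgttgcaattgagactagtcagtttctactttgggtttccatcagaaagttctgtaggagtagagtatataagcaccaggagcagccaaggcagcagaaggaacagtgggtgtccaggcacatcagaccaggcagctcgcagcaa
Ebi3: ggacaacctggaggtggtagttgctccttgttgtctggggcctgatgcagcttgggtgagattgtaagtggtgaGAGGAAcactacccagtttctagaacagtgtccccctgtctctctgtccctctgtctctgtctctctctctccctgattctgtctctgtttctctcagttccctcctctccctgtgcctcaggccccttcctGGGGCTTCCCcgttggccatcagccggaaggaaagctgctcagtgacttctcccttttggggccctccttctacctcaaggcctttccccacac
The Il6 window held 3 matches, to AP-1, C/EBP and NF-kB, the last starting 44 bases before the start site. The Ebi3 window held an NF-kB match, also starting 44 bases before its start site, and 1 PU.1 match. Il12b had 2 PU.1 matches, Lif 1 AP-1 match, and neither of the 2 windows of Il12a a match. Of all 32851 windows 4.51% held an NF-kB match, 7.81% AP-1, 10.8% C/EBP, 28.3% PU.1 and 3.44% the interferon element, which none of these 6 windows held. No 2 matches overlapped in these windows. A match describes letters in the window and says nothing of binding.

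The 3′ untranslated regions of most of these genes were rich in the pentamer ATTTA, given in DNA letters, the core of AU-rich elements that shorten mRNA lifetime. In the coding transcript with the longest coding part (GENCODE M21), searched on the sense strand with overlaps counted, Il6, Il12a, Il12b, Il23a, Il10 and Osm held 6 each. Il27 held 5 and Lif 7, while Ebi3 and Il15 held 1 each. Among tested genes with a 3′ region within 20% of the same length, at least as many were found in 5 of 907 for Il6, 9 of 991 for Il12a and 19 of 1203 for Il12b. The same count was 14 of 1141 for Il23a, 16 of 1130 for Il10, 41 of 1298 for Osm and 0 of 789 for Il27. For Lif, whose 3′ region spans 3180 bases, it was 337 of 981, and for Ebi3 and Il15 240 of 733 and 279 of 782. At least 1 pentamer was held by 32.7% (for Ebi3) to 97.04% (for Lif) of the genes of like length. The longer AU-rich nonamer TTATTTATT was absent from Il6, Il12b, Il10, Osm, Ebi3 and Il15. Il12a and Il23a held 1 nonamer each, and Il27 and Lif 2 each. At least as many nonamers were found in 34 of 991 genes for Il12a and 51 of 1141 for Il23a. For Il27 and Lif this was 2 of 789 and 33 of 981. The 2 most abundant cytokine transcripts, Ebi3 and Il15, were the 2 with the fewest pentamers, over 10 genes of which several share partners or neighbours. Their 3′ regions, at 245 and 277 bases, were also the shortest of the 10, though that of Il27, at 285, held 5. A link between level and pentamers was not tested. A stretch of 30 bases with the most pentamers, in capitals, is shown for Il12a, Il12b and Il27, with 4, 4 and 3 in the stretch, and for Il15 with 1.
Il12a: ctATTTAtATTTATTTAttttctATTTAtt
Il12b: ATTTAagtaATTTAtgtATTTAttaATTTA
Il27: gatATTTAtttcttggatATTTATTTAttt
Il15: tgcttatttttaATTTAttgcttcatttgt
Since ALKBH5 acts on N6-methyladenosine, the core GGACT of its consensus was counted in the same regions. Il6, Il12a, Il12b, Il27 and Il15 held none, Ebi3 and Il10 held 1, Il23a and Osm 2 and Lif 7. Genes of like length held at least 1 in 25.6% (for Ebi3) to 93.7% (for Lif) of cases, and 38 of 981 held at least as many as Lif. Only GGACT was searched, and coding parts were not, so a count of 0 does not mean that a transcript lacks a methylation site. These counts describe sequence, since methylation was not measured in these libraries.

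**Figure D2:**
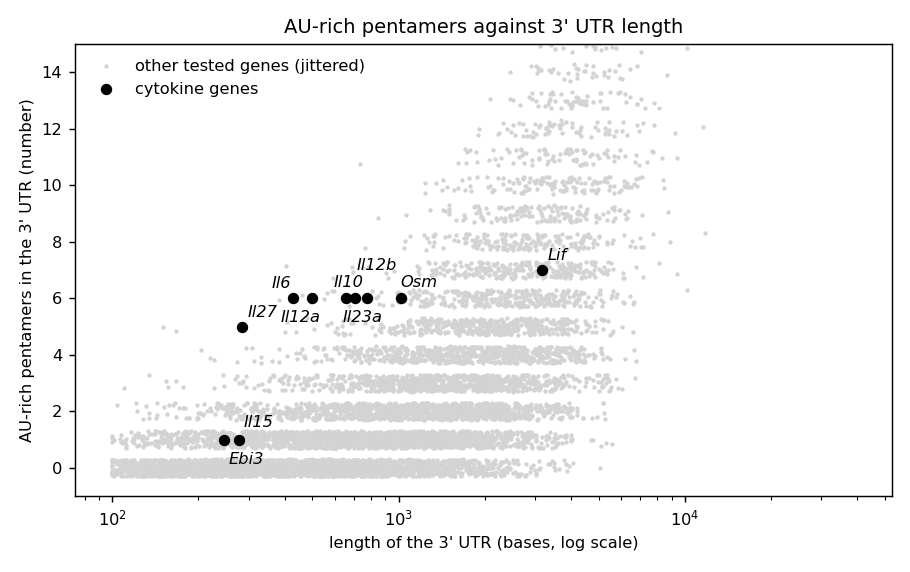
Number of AU-rich pentamers against the length of the 3′ untranslated region in bases (log scale), for the 10 cytokine genes (black) and the other tested genes (grey, jittered vertically). Il6, Il12a, Il12b, Il23a, Il10, Osm and Il27 lie above most genes of like length, and Lif, Ebi3 and Il15 lie among them. The axis ends at 15, and 146 other genes lie beyond it.

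Il6 went from 2 reads in the WT-labelled libraries to 689 in the others, the greatest ratio of reads among the 10 cytokine genes. Its promoter window, shown above, held 3 of the matches. Il6 lies at chromosome 5, 30013114 to 30019981 on the plus strand (mm10). Its level was 0.0447, 0 and 0 FPKM in the WT-labelled libraries, from 2 reads in all, and 6.11, 5.37 and 5.41 FPKM in the CKO-labelled ones, from 254, 201 and 234 reads. A transcript close to absent in one group was thus at a moderate level in every library of the other. The ratio of 363 has a 95% interval of 100.04 to 3001, which covers counting error alone and is wide because it rests on those 2 reads. On log2(FPKM + 1), a scale that understates changes of low genes, Il6 rose by 2.71 (SE 0.065, limma adjusted p = 9.29e-12). With a pseudocount of 0.1 in place of 1 the rise was 5.66, and with limma voom on reads 8.14.

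Osm, which signals to stromal cells and hepatocytes, was already present in the WT-labelled libraries. It read 2.68, 2.89 and 2.88 FPKM there and 6.32, 6.31 and 5.86 in the CKO-labelled ones, and the groups did not overlap. This was a 2.19-fold rise (95% counting interval 1.92 to 2.50, log2 fold change 0.91, SE 0.054, limma adjusted p = 2.76e-08). Lif, a survival and differentiation factor, lies 16530 bases downstream of Osm on chromosome 11 and on the same strand. Osm spans 4236420 to 4241026 and Lif 4257557 to 4272514. Lif read 0.0250, 0 and 0.0414 FPKM in the WT-labelled libraries and 0.470, 0.298 and 0.504 in the CKO-labelled ones. With 5 against 94 reads it was 19.8-fold higher (95% counting interval 8.19 to 62.4), yet stayed below the filter. In the fit with no filter its log2 fold change was 0.48 (limma adjusted p = 2.20e-04). The neighbours Osm and Lif were thus both higher in the CKO-labelled libraries, at levels more than 10-fold apart in that group, 6.16 ± 0.262 and 0.424 ± 0.110 FPKM (SD, n = 3).

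In the interleukin-12 family all 3 subunits that form interleukin-12 and interleukin-23 were scarce in the WT-labelled libraries. Il12b encodes the p40 subunit shared by both cytokines and lies at chromosome 11, 44400063 to 44414033, on the plus strand. It read 0.138, 0.113 and 0.244 FPKM in the WT-labelled libraries and 9.44, 11.7 and 9.80 in the CKO-labelled ones, a 63.0-fold difference (95% counting interval 39.1 to 109). Its rise of 3.28 on the log2 scale was the largest among the 8 tested cytokine genes with a pseudocount of 1, but not with 0.1 or with limma voom, where Il6 came first (SE 0.081, limma adjusted p = 1.18e-11). Il12a encodes the p35 subunit, specific to interleukin-12 in this set of pairs, and lies at chromosome 3, 68690644 to 68698547. It read 0.575, 0.622 and 0.318 against 5.59, 5.41 and 5.35 FPKM, and rose 10.7-fold (95% counting interval 7.89 to 14.8, log2 fold change 2.11, SE 0.080, limma adjusted p = 4.31e-10). Il23a, the p19 subunit (chromosome 10, 128296139 to 128298752), stayed near its detection limit. It had 1, 0 and 0 reads in the WT-labelled libraries and 7, 11 and 8 in the CKO-labelled ones, or 0.182, 0.317 and 0.200 FPKM. That ratio of 27.4 has a counting interval of 4.50 to 1122, and the fit with no filter put it at 0.29 on the log2 scale (limma adjusted p = 6.93e-04).

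The sizes again depended on the scale, since with a pseudocount of 0.1 Il12b rose by 5.32 and Il12a by 3.24. The balance between partner subunits differed as well. By mean FPKM, Il12b stood at 0.327 times Il12a in the WT-labelled libraries and at 1.89 times in the CKO-labelled ones. As log2((FPKM + 1)/(FPKM + 1)) the ratio was -0.47, -0.54 and -0.08 in the first group and 0.66, 0.99 and 0.77 in the second, a difference of 1.17. Il12b was thus below its partner in every WT-labelled library and above it in every CKO-labelled one. The WT-labelled side rested on 5, 4 and 8 reads of Il12b against 18, 19 and 9 of Il12a, close to equal in the last library. Il12b stood at 20.5 times Il23a in the WT-labelled libraries, where Il23a had 1 read, and at 44.3 times in the CKO-labelled ones, so that the log2 ratio of this pair largely restates the level of Il12b. For each of the 3 subunit pairs the groups did not overlap and the exact two-sided permutation test gave p = 0.1, also after Benjamini-Hochberg adjustment over the 3 pairs. That is the smallest p that 3 against 3 libraries allow, and the same exact permutation test gave p = 0.1 for each of the 10 cytokine genes.

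Interleukin-27 differed in that 1 of its subunits was abundant throughout. Ebi3 (chromosome 17, 55952640 to 55957022) was the most abundant of the 10 transcripts in both groups, at 15.3, 17.8 and 17.01 FPKM in the WT-labelled libraries and 34.5, 32.9 and 37.6 in the CKO-labelled ones. It rose 2.11-fold (95% counting interval 1.95 to 2.27, log2 fold change 1.03, SE 0.060, limma adjusted p = 2.18e-08). Its partner Il27, the p28 subunit (chromosome 7, 126589010 to 126594941), read 1.44, 1.58 and 0.941 against 9.43, 12.3 and 10.9 FPKM. That is an 8.13-fold rise (95% counting interval 6.35 to 10.5, log2 fold change 2.36, SE 0.110, limma adjusted p = 2.81e-09). Ebi3 exceeded Il27 by 12.6 times in the WT-labelled libraries and by 3.23 times in the CKO-labelled ones, and the log2 ratio of the pair changed by -1.33. The annotation places Apobr across Il27 on the opposite strand and the antisense gene Gm16712 across Ebi3. The kit was stranded, but whether reads were counted by strand is not given in the sources used here, so reads of the overlapping parts may be shared. Apobr itself read 28.7 ± 1.28 against 22.9 ± 1.08 FPKM (SD, n = 3), the opposite direction to Il27.

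Il10, the anti-inflammatory member, rose as well. It read 1.33, 0.978 and 1.24 FPKM in the WT-labelled libraries and 5.79, 7.03 and 5.23 in the CKO-labelled ones (chromosome 1, 131019845 to 131024974). The 5.06-fold rise (95% counting interval 3.98 to 6.50) was 1.68 on the log2 scale (limma adjusted p = 1.49e-08, SE 0.094). Il15 (chromosome 8, 82331632 to 82403222) was the second most abundant of these cytokine transcripts in both groups. It read 13.6, 11.9 and 12.1 against 27.1, 28.9 and 29.1 FPKM, a 2.26-fold rise (95% counting interval 2.12 to 2.40, log2 fold change 1.12, SE 0.053, limma adjusted p = 3.31e-09). The 3 genes present at over 2 FPKM in the WT-labelled libraries, Ebi3, Il15 and Osm, had ratios between 2.11 and 2.26. The other 7 started at 1.32 FPKM or less and had ratios of 5.06 or more. Since the WT-labelled level is the denominator of the ratio, a low start by itself favours a large ratio. A link between the starting level and the ratio was not tested.

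Receptor chains of these cytokines were found on both sides. Of 20 listed chains 11 were tested, 5 rose and 6 fell, beside 30.5% and 50.5% of all tested genes, with the same counts after both rescalings. Il12rb1, Il23r and Il20rb passed the filter through the CKO-labelled libraries alone and Il12rb2 through the WT-labelled ones alone, so their calls were fixed by the filter. Of the other 7 chains 2 rose and 5 fell. Over the 11 chains, with those fixed by the filter included, the median log2 fold change was -0.55 beside -0.14 over all tested genes. The chains for interleukin-6 fell. Il6ra, its binding chain, went from 20.3 ± 0.600 to 6.10 ± 0.103 FPKM (log2 fold change -1.59, limma adjusted p = 2.02e-11), and Il6st, the shared gp130, from 15.1 ± 0.591 to 6.64 ± 0.157 (-1.08, limma adjusted p = 1.12e-09). Il11ra1, which pairs with gp130 to bind interleukin-11, went from 18.4 ± 1.24 to 4.19 ± 0.209 FPKM (SD, n = 3). Lifr, the Lif receptor chain, was below the filter at 0.937 ± 0.0690 against 0.114 ± 0.00578 FPKM. Osmr, the specific chain for Osm, had 4 reads in all in the first group and 2 in the second, under 0.01 FPKM in each. Ligand and receptor of this branch thus lay in opposite directions in these libraries, Il6 higher and Il6ra and Il6st lower.

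For interleukin-12 and interleukin-23 the chains diverged. Il12rb1, shared by both receptors, went from 0.186 ± 0.0798 to 2.23 ± 0.320 FPKM (log2 fold change 1.44, limma adjusted p = 2.51e-08). Il23r, the chain specific to interleukin-23, had 1, 0 and 0 reads in the WT-labelled libraries and 180, 162 and 199 in the CKO-labelled ones, at 4.22, 4.22 and 4.49 FPKM (log2 fold change 2.40, limma adjusted p = 1.12e-11). Il12rb2, the chain specific to interleukin-12, fell from 3.11 ± 0.318 to 0.105 ± 0.0137 FPKM, or 29.7-fold by reads (log2 fold change -1.89, limma adjusted p = 4.00e-10). Il27ra, below the filter, read 0.653 ± 0.150 against 0.200 ± 0.0377 FPKM (SD, n = 3).

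Both chains of the interleukin-10 receptor fell and both tested chains for interleukin-15 rose. Il10ra went from 56.8 ± 1.55 to 38.5 ± 0.402 FPKM and Il10rb from 37.2 ± 1.603 to 18.8 ± 0.138, by -0.55 and -0.94 on the log2 scale (limma adjusted p = 2.49e-08 and 9.72e-10). Il15ra read 1.82, 1.63 and 1.77 FPKM in the WT-labelled libraries and 24.0, 24.1 and 22.8 in the CKO-labelled ones. This 13.6-fold rise (95% counting interval 12.3 to 15.05) stands beside 2.26-fold for its ligand, and on the log2 scale Il15ra rose by 3.17 (limma adjusted p = 2.54e-13). Il2rg, the common gamma chain, went from 12.1 ± 0.954 to 38.9 ± 0.633 FPKM. Il2rb, the third chain of that receptor and a marker of lymphocytes, was scarce at 0.139 ± 0.0557 against 0.345 ± 0.124 FPKM (SD, n = 3). Il20rb, a receptor chain for interleukin-10 relatives, rose from 0.529 ± 0.0389 to 4.42 ± 0.257 FPKM.

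**Figure D3:**
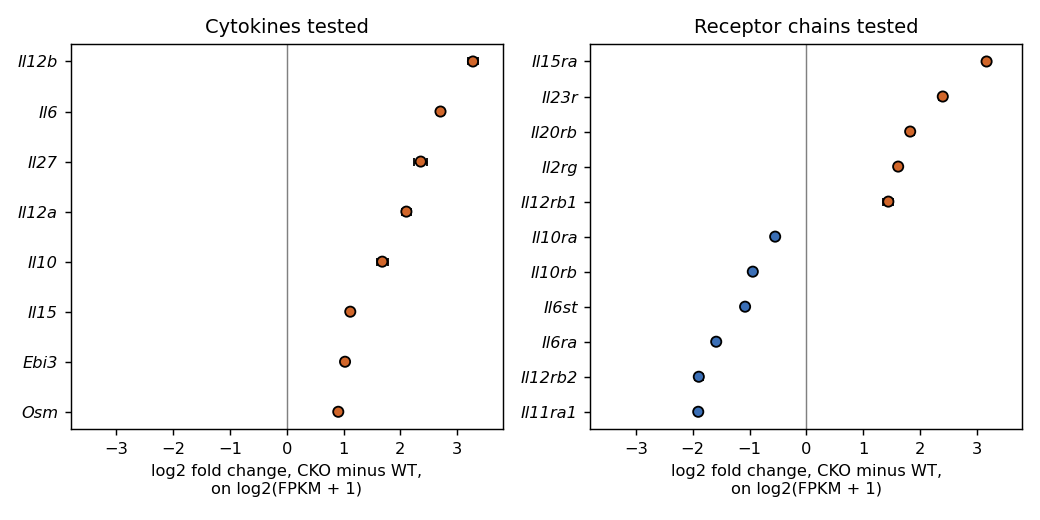
Log2 fold change on log2(FPKM + 1), CKO minus WT, with its standard error, for the 8 tested cytokine genes (left) and the 11 tested receptor chains (right). Orange marks genes higher and blue genes lower in the CKO-labelled libraries at a limma adjusted p under 0.05. All 8 cytokine genes lie right of 0, while 5 receptor chains lie right and 6 left of it.

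Most other ligands of the same families were near absent. Of 14 listed, 4 had no read in any library and 1 was tested, Il4, which passed the filter through the WT-labelled libraries alone, so that its call was fixed. Il4, which belongs to the wider group using the common gamma chain, fell from 2.47 ± 0.192 to 0.768 ± 0.159 FPKM (log2 fold change -0.97, limma adjusted p = 3.44e-07). With no filter 10 of the 14 were tested, and 4 rose and 2 fell, beside 23.3% and 38.0% of all genes tested so. Clcf1, a gp130 ligand, read 0.0999, 0.176 and 0.189 FPKM in the WT-labelled libraries and 1.26, 1.33 and 0.945 in the CKO-labelled ones. Il7 read 0.179 ± 0.0177 against 0.667 ± 0.0480 FPKM (SD, n = 3). Clcf1 and Il7 were named after their values were seen.

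Among feedback genes Socs3 and Socs1 differed most, while the phosphatases Ptpn6 and Ptpn11 differed little. Of 19 listed signalling and feedback genes 17 were tested, 10 rose and 4 fell, beside 30.5% and 50.5% of all tested genes, or 13 and 3 after median-of-ratios scaling and 10 and 3 after quantile normalization, at a median of 0.48 beside -0.14 over all tested genes. Socs1 and Stat4 passed the filter through the CKO-labelled libraries alone, so their calls were fixed, and of the other 15 genes 8 rose and 4 fell. The median of 0.48 includes Socs1 and Stat4, at 3.85 and 0.67, and so is raised by the filter. Socs3, which binds gp130 and shuts off interleukin-6 signalling, went from 2.47 ± 0.0588 to 176 ± 1.57 FPKM (log2 fold change 5.67, limma adjusted p = 2.88e-16). Socs1, a brake on interferon and interleukin-12 signalling, went from 0.612 ± 0.139 to 22.1 ± 0.960 FPKM (3.85, limma adjusted p = 6.63e-13). Jak2, the kinase on the Il12rb2 and Il23r chains, went from 10.4 ± 0.192 to 101 ± 4.21 FPKM. Bcl3 went from 7.55 ± 0.433 to 25.3 ± 0.398 FPKM (log2 fold change 1.62, limma adjusted p = 3.37e-11). Stat3, the main effector of interleukin-6 and interleukin-10, went from 21.6 ± 0.734 to 34.3 ± 0.605 FPKM. Ptpn6 read 92.7 ± 2.50 against 94.1 ± 1.85 FPKM with overlapping groups (log2 fold change 0.02, limma adjusted p = 0.533), and was called higher, by 0.19, after median-of-ratios scaling. Ptpn11 rose by 0.13 (limma adjusted p = 0.0120). Socs2 and Cish, below the filter, read 0.109 ± 0.0445 against 0.489 ± 0.0539 and 0.0525 ± 0.0161 against 0.458 ± 0.124 FPKM. Jak1 read 44.0 ± 0.172 against 46.2 ± 1.07 FPKM (log2 fold change 0.07, limma adjusted p = 0.0723), and was called higher, by 0.23, after median-of-ratios scaling. In the other direction Stat5a and Stat5b, which serve interleukin-15, changed by -0.91 and -0.64, and the sheddase Adam10 by -0.45. Pias3, an inhibitor of STAT3, changed by -0.23, a call lost after median-of-ratios scaling and quantile normalization (limma adjusted p = 0.224 and 0.158). Adam17, the main sheddase of the interleukin-6 receptor, read 66.4 ± 1.14 against 67.7 ± 1.65 FPKM (log2 fold change 0.03, limma adjusted p = 0.423), with overlapping groups, though it was called higher, by 0.19, after median-of-ratios scaling.

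Among known regulators of these cytokine genes Cebpb, Nfil3 and Irf1 rose most and Maf fell most. Of 25 listed factors of transcription and mRNA decay 23 were tested, 13 rose and 8 fell, beside 30.5% and 50.5% of all tested genes, or 15 and 6 after median-of-ratios scaling and 14 and 7 after quantile normalization, at a median of 0.31 beside -0.14 over all tested genes. Nfkbiz, an NF-kB cofactor needed for Il6 and Il12b induction, rose from 5.14 ± 0.0673 to 16.0 ± 0.136 FPKM. Zc3h12a, a nuclease that degrades Il6 and Il12b mRNA, rose from 11.8 ± 0.361 to 32.2 ± 0.695 FPKM. Nfil3, a basic leucine zipper factor, rose by 2.02 and Atf3, a repressor of Il6 and Il12b, by 0.98 (limma adjusted p = 3.86e-11 and 4.12e-11). Irf1, a factor for Il12a, Il27 and Il15, rose by 1.93, and Cebpb by 2.12 with a wide spread, at 276, 214 and 233 FPKM in the CKO-labelled libraries. Maf, an activator of Il10, fell from 29.4 ± 1.44 to 14.2 ± 0.174 FPKM, and Irf8, a factor for Il12b, changed by -0.50 (limma adjusted p = 1.26e-09 and 6.53e-07). Bhlhe40, a repressor of Il10, changed by -0.54 and its relative Bhlhe41 by -0.79. Of the listed NF-kB subunits Rela rose by 0.70 and Nfkb1 by 0.23 (limma adjusted p = 2.51e-09 and 2.04e-04), and both were called higher after both rescalings. Rel changed by -0.20 and was not called after either rescaling (limma adjusted p = 0.410 and 0.0596). Irf5 changed by -0.08 but by 0.09 after median-of-ratios scaling, a call in the other direction (limma adjusted p = 0.0162 and 0.0143). Of the factors for AU-rich mRNA, Zfp36 rose by 0.77 and Zfp36l1 changed by -0.87, whereas Elavl1 read 5.41 ± 0.528 against 4.91 ± 0.248 FPKM with overlapping groups.

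**Figure D4:**
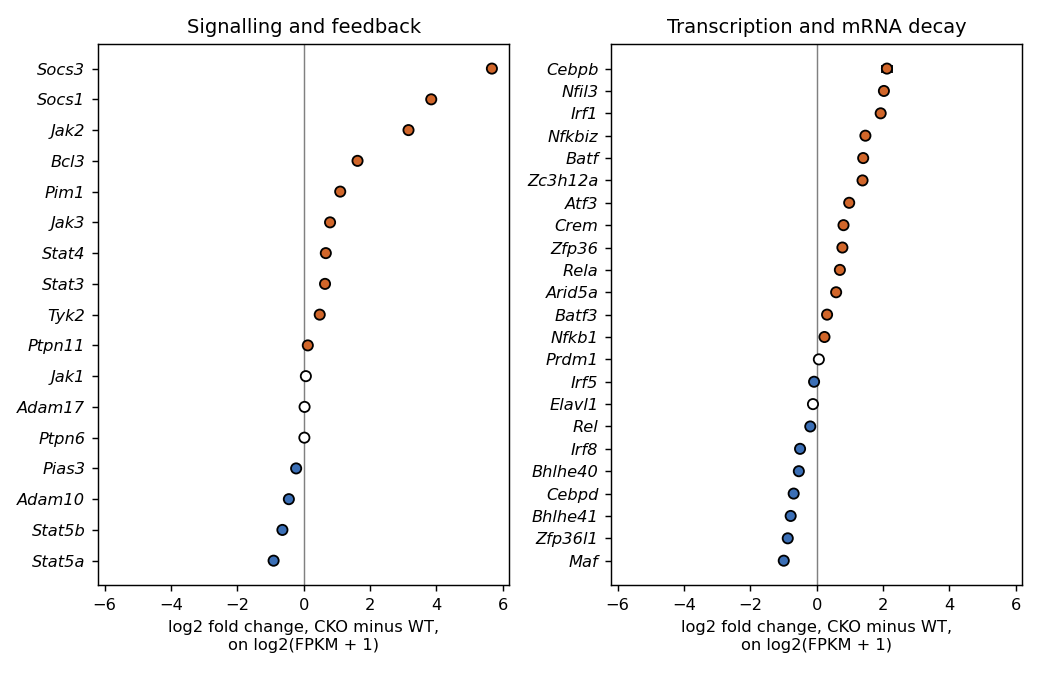
Log2 fold change on log2(FPKM + 1), CKO minus WT, with its standard error, for 17 signalling and feedback genes (left) and 23 regulators of transcription and mRNA decay (right). Orange marks a call of higher with the label CKO, blue a call of lower, and white marks genes that were not called. Socs3, at 5.67, stands farthest from 0, and Maf, at -0.99, is the lowest regulator.

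Genes with the most similar profile were found by the Euclidean distance of log2(FPKM + 1) over the 6 libraries, which weighs level and difference together. Nearest to Il6 were Csta2, a cystatin, and Csf3, the granulocyte colony-stimulating factor, at distances of 0.197 and 0.221. Csf3 was listed at 0 in the WT-labelled libraries and averaged 5.78 FPKM in the CKO-labelled ones. Nearest to Il12b were Tnfsf4, the OX40 ligand, and Olfr56, at 0.282 and 0.307. Tnfsf4 averaged 0.144 against 11.4 FPKM. Treml4 and Serf1 were nearest to Il12a, Pcx and Slco3a1 to Il27, Tmem178 and Dst to Il10, and Trappc5 and Ppp1r3b to Osm. Rnf14 and the phosphatase Dusp4 were nearest to Ebi3, and Smox and Itpa to Il15. With 2 groups of 3 libraries these distances mostly reflect the level in each group.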

How the data were processed

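RNA from sorted mouse macrophages was measured in 3 libraries labelled WT and 3 labelled CKO, grouped by sample title. The authors deposited FPKM values per gene, per the file headers. The submitters' processing notes list Cufflinks, DESeq2 1.22.1, fastp 0.19.3, featureCounts 1.6.2, GATK 4.0.11.0, HISAT2 2.1.0, mm10 and StringTie 1.3.4d, with no role or order, and libraries were stranded mRNA, per the labels' protocols. FPKM times listed gene length gave whole multiples of 1 step, within 0.01 reads, for every value, so reads were recovered. They served for depth, ratios with exact 95% intervals, which cover counting error only, and limma voom. Genes that reached 1 FPKM in 3 or more libraries were fitted, as log2(FPKM + 1), with limma 3.58.1 (eBayes with trend, R 4.3.3), group as the only term. Adjusted p-values (Benjamini-Hochberg over all genes tested) come from limma. The script was tested on simulated data. Subunit ratios were compared by exact permutation in scipy 1.17.1.

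The members were matched by symbol with no threshold on values, but the member list, the other lists and the tests were all chosen with earlier results of these data known. 1 gene of the signalling list is not reported here and was left out of its counts. Named were the members, up to 4 genes of each list with the smallest p, receptor chains of the members, list genes of opposite direction, and the 2 nearest profiles without clone-style symbols. Some further genes of the regulator and signalling lists were named after their values were seen. Alternatives were limma voom, limma without trend, quantile normalization, scaling by median of ratios, a stricter filter (mean FPKM 5 or more), none, pseudocounts of 0.5 and 0.1, a block for replicate number, and leaving out 1 library at a time. Same-numbered libraries did not deviate together, so the numbers were not used to pair them.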

Additional observations from a re-analysis of the deposited data

How the results depend on the processing

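For the 5 cytokine genes with libraries of both groups at 1 FPKM or more, Il27, Ebi3, Il10, Il15 and Osm, the rise was called in 73 of 73 alternative values, with a largest limma adjusted p of 8.56e-06, for Il10. Il27 and Il10 reached 1 FPKM in only 2 WT-labelled libraries, so the CKO-labelled ones helped them pass the filter. Ebi3, Il15 and Osm passed it in either group and were called in 15 of 15, 15 of 15 and 14 of 14 values. Their largest limma adjusted p was 8.45e-06, for Ebi3. Of all 8069 genes called, 81.7% kept their call and direction in every alternative that tested them. Il6, Il12a and Il12b were called in every alternative that tested them too, but their calls were fixed by the filter. The size on the log2 scale depended on the pseudocount for genes near 0: with a pseudocount of 0.1 Il6 rose by 5.66, Il12b by 5.32 and Il12a by 3.24, and with limma voom by 8.14, 5.91 and 3.43. Leaving out 1 library at a time moved Il6 between 2.65 and 2.73 and Il27 between 2.23 and 2.45. With a mean FPKM of at least 5 the test held 4 of the cytokine genes, all 4 called higher. Il12b and Il27, at 0.165 and 1.32 FPKM on average in the WT-labelled libraries, passed that filter only through the CKO-labelled ones. Their calls there were thus fixed, and that of Il27 is among the 73 values. Under that filter 2 receptor chains were called higher, 0 other ligands lower, and 2202 genes higher and 3185 lower, since fewer genes were tested. With no filter 4 of 10 tested other ligands were called higher and 2 lower, beside 23.3% and 38.0% of all genes. Median-of-ratios scaling moved log2 fold changes by a median of 0.15 and quantile normalization by 0.10. Over all genes 3038 were called higher and 5031 lower, and after median-of-ratios scaling 3952 and 3962.

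The fit with the replicate number as a block called 8 cytokine genes, 3018 genes higher and 5023 lower. Deviations of same-numbered libraries correlated at 0.02, 0.01 and -0.04, so the numbers were not taken as pairs. The log2 ratio of Il12b to Il12a differed between groups by 1.08 to 1.31 without 1 library, and by 2.08 with a pseudocount of 0.1. For Il23a and Lif, with 1 and 5 reads in the WT-labelled libraries, depth limits the size of any ratio.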
